A study of Mus musculus with 2 samples.

Results

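The genes described here are 10 genes of the transforming growth factor beta (TGF-β) system: the ligand genes Tgfb1, Tgfb2 and Tgfb3, the receptor genes Tgfbr1, Tgfbr2 and Tgfbr3, the genes Ltbp1 and Ltbp3 for latent TGF-β binding proteins, the matrix gene Tgfbi, and Smad7, which encodes an inhibitor of the pathway. They were found by symbol, as every probe set whose platform annotation gave 1 gene symbol and that symbol was on the list. This gave 28 of 45101 probe sets and 10 of 18194 named genes. A probe set is a group of short probes on the array, read as 1 signal. The samples were total RNA from pooled lenses of wild-type mice of the C57/BL6 strain at postnatal day 7 (P7), when the lens grows fast, and at postnatal day 60 (P60), in young adulthood. A single pool per age was hybridised to 1 array. Values therefore have no replicates, no test between the ages was possible, and every difference below is a description of these 2 arrays. The labels name neither the number of animals in a pool nor their sex.

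TGF-β is secreted in a latent form, held by its own propeptide, which latent TGF-β binding proteins tie to the extracellular matrix. Once released, the ligand binds the type II receptor (Tgfbr2), which activates the type I receptor (Tgfbr1), and this phosphorylates Smad2 and Smad3, which join Smad4 and enter the nucleus. In the lens the pathway is best known for turning epithelial cells into matrix-producing, contractile cells in some forms of cataract, and it is also active in fibre cell differentiation.

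Values are MAS5 signals, in arbitrary units on a linear scale, as deposited. A signal was treated as measured above a floor of 103.9, which is the median signal over both arrays together. Lower signals were set to the floor for the log2 ratio of P60 over P7, so that any fold with such a value on either side is a bound. Among the 28 probe sets, 15 exceeded the floor on both arrays, 4 at P7 only, 1 at P60 only and 8 on neither. Signals of different probe sets depend on their probes, so levels were not compared between genes. A gene was represented by its brightest probe set, the one with the highest mean log2 signal over both arrays, and all 10 genes were measured in this way.

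By that measure, 4 of the 10 genes were at least 2-fold higher at P60: Tgfb3, Tgfb1, Ltbp3 and Tgfbr3. None was 2-fold lower, and 6 lay within 2-fold. For comparison, 11.5% of the 13029 genes measured on these arrays passed 2-fold upward and 9.44% downward. The median log2 ratio of the 10 genes was 0.54, against 0.02 for all measured genes. Counted by probe set, 6 of the 20 measured were at least 2-fold higher and 0 lower, against 9.89% and 10.6% of 22462 measured probe sets. The members and the gene lists below were chosen with earlier results of these data known. Such counts and medians therefore describe the lists and are no test of them. As a guide to measurement error, log2 ratios of probe sets of the same gene differed with an SD of 0.58, pooled over 4239 genes. It does not cover differences between pools or hybridisations.

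**Figure D1:**
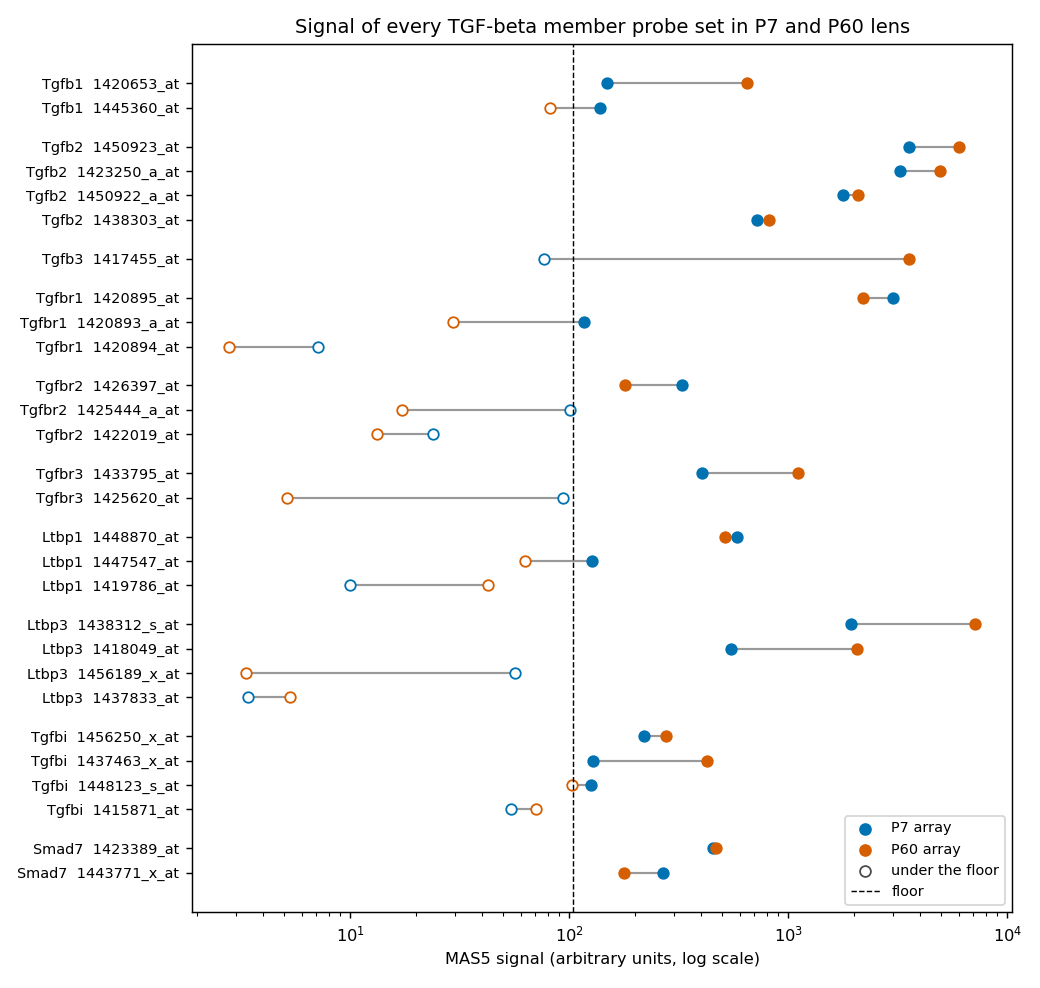
MAS5 signal (log axis, arbitrary units) of each of the 28 probe sets on the P7 array (blue) and the P60 array (orange), joined by a line, with open circles for signals under the floor of 103.9 (dashed). Tgfb3 crosses the floor from 76.3 to 3542, both bright Ltbp3 probe sets shift to the right by a similar distance, and the 4 Tgfb2 probe sets stay close to their P7 positions.

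Among the ligands the difference was greatest for Tgfb3. Its single probe set, 1417455_at, read 76.3 at P7, under the floor, and 3542 at P60. The gene was thus at least 34.1-fold higher at P60, with a floored log2 ratio of 5.09 and a ratio of 5.54 on the values as deposited. Ranked by floored ratios, bounds such as this one included, it was number 3 from the highest among the 13029 genes. With a floor of 207.8 the ratio was 4.09.

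Tgfb1, the most widely studied ligand, rested on probe sets that did not move together. Probe set 1420653_at read 149 at P7 and 646 at P60, 4.35-fold higher (log2 ratio 2.12). Probe set 1445360_at read 138 at P7 and 81.7 at P60, under the floor, at least 1.33-fold lower. The P7 signals of both were close to the floor. These ratios were at least 2.53 apart on the log2 scale. The SD of 0.58 between probe sets of a gene describes single ratios above the floor on both arrays, so it does not cover 1445360_at. The count of 4 higher genes holds Tgfb1 on the brighter of these probe sets. On the dimmer its ratio was -0.41, and the mean of both was 0.85, within 2-fold.

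Tgfb2, the main TGF-β isoform of the fluid that bathes the lens, was above the floor on all 4 of its probe sets at both ages. The signals at P7 and P60 were 3555 and 5989 on 1450923_at, and 3249 and 4947 on 1423250_a_at. They were 1775 and 2074 on 1450922_a_at, and 720 and 816 on 1438303_at. All 4 were higher at P60, by 1.68-fold, 1.52-fold, 1.17-fold and 1.13-fold, and none reached 2-fold. The log2 ratios spanned 0.18 to 0.75, a range of 0.57. Of 794 genes at a similar level (a mean log2 signal within 0.5), 15.7% had a higher ratio than the brightest Tgfb2 probe set.

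The DNA just before the starts of Tgfb1 and Tgfb2 is shown because these ligand genes are known to have promoters of different build. Whether that bears on their ratios was not tested. RefSeq windows (GRCm38.p6) matched 7 of the 10 genes. Tgfb3, Tgfbr3 and Smad7 had no window among those used. Windows of a chromosome were set aside beforehand, so the set does not cover every chromosome. Each sequence below is the 250 bases before the annotated gene start, 5′ to 3′ on the gene's strand. Capitals mark GGGCGG (the GC box, on either strand) in Tgfb1 and TATAAA (the TATA box) and CAGACA (a short Smad-type box) in Tgfb2. No marked motifs overlap.
Tgfb1, chr7:25686752-25687001, plus strand: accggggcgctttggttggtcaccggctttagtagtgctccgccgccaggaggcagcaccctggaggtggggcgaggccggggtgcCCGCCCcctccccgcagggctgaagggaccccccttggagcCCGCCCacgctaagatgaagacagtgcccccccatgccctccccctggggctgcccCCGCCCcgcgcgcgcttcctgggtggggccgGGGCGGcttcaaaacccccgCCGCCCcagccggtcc
Tgfb2, chr1:186705990-186706239, minus strand: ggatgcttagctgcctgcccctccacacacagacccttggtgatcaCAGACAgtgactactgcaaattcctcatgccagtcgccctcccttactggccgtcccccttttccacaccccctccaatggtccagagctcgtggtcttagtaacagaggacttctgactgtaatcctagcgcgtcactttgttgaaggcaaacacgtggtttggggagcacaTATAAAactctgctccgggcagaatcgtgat

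The Tgfb1 window was 75.2% G or C and held 5 GC boxes, starting between 164 and 16 bases before the gene start, and no TATAAA. The Tgfb2 window was 53.6% G or C, with TATAAA starting 31 bases and CAGACA 204 bases before the start, and no GC box. The median of 32851 windows of this length was 52.4% G or C, and 32.7% of them held GGGCGG, 12.4% TATAAA and 17.1% CAGACA on either strand. The 8-base cyclic AMP response element TGACGTCA, held by 1.55% of windows, was found 73 bases before 1 of the 2 annotated starts of Ltbp1 and in no other window of these genes. Such matches describe the letters only and were not tested for binding.

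The receptor genes divided. Tgfbr1, the type I kinase that phosphorylates Smads, read 2990 at P7 and 2203 at P60 on its bright probe set 1420895_at, 1.36-fold lower (log2 ratio -0.44). On 1420893_a_at it read 116 and 29.5, at least 1.12-fold lower, and 1420894_at was under the floor on both arrays (7.12 and 2.80). Tgfbr2, the type II receptor that binds ligand first, read 325 at P7 and 180 at P60 on 1426397_at, 1.80-fold lower (log2 ratio -0.85). This was the lowest ratio of the 10 genes and short of 2-fold. The other Tgfbr2 probe sets were under the floor at both ages, with 100.2 and 17.3 on 1425444_a_at and 23.8 and 13.3 on 1422019_at. All 3 measured probe sets of these kinases were thus lower at P60, none of them by 2-fold, and the other 3 carry no direction.

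Tgfbr3 encodes betaglycan, a co-receptor without kinase activity that presents ligand, TGF-β2 above all, to the type II receptor. It read 405 at P7 and 1106 at P60 on 1433795_at, 2.73-fold higher (log2 ratio 1.45). Of 2352 genes at a similar level, 6.89% had a higher ratio. Its other probe set, 1425620_at, was under the floor at both ages (93.4 and 5.15) and carries no direction. The co-receptor was thus on the higher side at P60 on its measured probe set, and both signalling receptors were on the lower side. Whether these receptor differences differ from each other could not be tested with 1 array per age.

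Of the latent TGF-β binding proteins, Ltbp3 was higher on both probe sets above the floor. Probe set 1438312_s_at read 1934 at P7 and 7115 at P60, 3.68-fold higher, and 1418049_at read 546 and 2052, 3.76-fold higher. Their log2 ratios, 1.88 and 1.91, lay 0.03 apart. Of 937 genes at a similar level, 25 (2.67%) had a higher ratio. The remaining Ltbp3 probe sets were under the floor at both ages, with 56.5 and 3.34 on 1456189_x_at and 3.41 and 5.32 on 1437833_at. The ending _s_at marks probes that can match more than 1 transcript and _x_at probes with close matches elsewhere, so 1418049_at is the more specific of the pair.

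Ltbp1, which also carries latent ligand to the matrix, stayed near its P7 signal. It read 582 at P7 and 511 at P60 on 1448870_at, 1.14-fold lower (log2 ratio -0.19). On 1447547_at it read 127 and 62.6, at least 1.22-fold lower, and 1419786_at was under the floor on both arrays (9.93 and 42.5). The ratio of Ltbp3 exceeded that of Ltbp1 on every measured probe set of either gene.

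Tgfbi encodes a matrix protein named for its induction by TGF-β and abundant in cornea. Its probe sets were dim and did not move together. It read 219 at P7 and 276 at P60 on 1456250_x_at, 1.26-fold higher, and 128 and 425 on 1437463_x_at, 3.32-fold higher. On 1448123_s_at it read 126 and 102.4, at least 1.21-fold lower, and 1415871_at, the probe set with no letter in its ending, was under the floor at both ages (54.2 and 70.6). Both the probe set past 2-fold and the brightest one, on which the gene was counted as within 2-fold, are of the _x_at kind whose probes can match other sequences.

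Smad7, which blocks the type I receptor and is itself induced by the pathway, did not reach 2-fold on either probe set. It read 453 at P7 and 470 at P60 on 1423389_at, a log2 ratio of 0.05 that became 0.00 when the arrays were centred on their medians. On 1443771_x_at it read 269 and 178, 1.51-fold lower (log2 ratio -0.60). Of the 7 genes with 2 or more measured probe sets, Tgfb1, Tgfbi and Smad7 had them on both sides of 0, against 46.0% of 5624 such genes on the array.

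**Figure D2:**
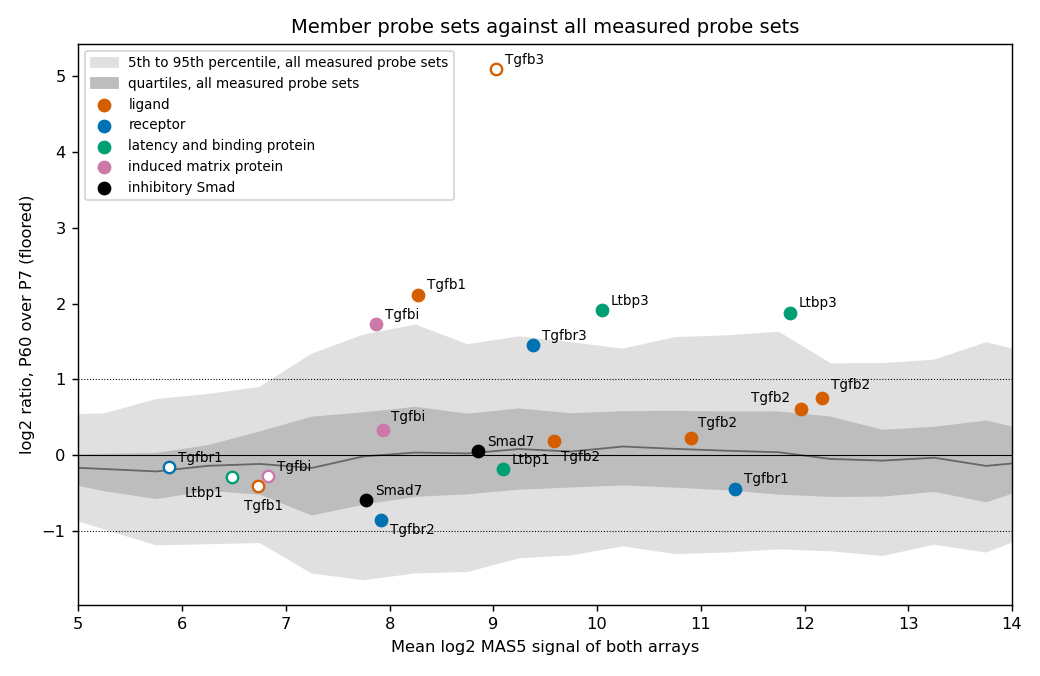
Floored log2 ratio of P60 over P7 against the mean log2 signal of both arrays for the 20 measured probe sets, coloured by role, with open circles where 1 array was under the floor. Bands show the percentiles from 5 to 95 (pale) and from 25 to 75 (dark) of all 22462 measured probe sets at the same level, and dotted lines mark 2-fold. Tgfb3, the brighter of 2 Tgfb1 probe sets, both Ltbp3 probe sets and 1 Tgfbi probe set lie above the pale band, and no member lies below it.

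The other genes of the pathway were taken from a list of 48, of which 43 were measured. On their brightest probe sets 7 passed 2-fold upward and 5 downward at P60. These are shares of 16.3% and 11.6%, set beside 11.5% and 9.44% over all genes. The median log2 ratio was 0.12. Smad3, Pmepa1 and Usp4, with ratios from 1.01 to 1.04, fell short of 2-fold when the arrays were centred on their medians or quantile normalised, which left 4 higher genes. With a doubled floor 3 genes were lower.

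Among genes of the latent complex and its activation, 3 of 9 measured were higher and 1 lower. These are shares of 33.3% and 11.1%, beside 11.5% and 9.44% over all genes. Furin, the protease that cuts the TGF-β propeptide, read 810 at P7 and 3271 at P60, 4.04-fold higher. Ltbp2, a relative of the binding proteins that attaches to microfibrils, was at least 4.93-fold higher (48.0, under the floor, and 512). Itgb5, an integrin chain that pairs with the αv chain, was 2.14-fold higher, and its 4 probe sets ran from 0.90 to 1.10. Pcsk6, a protease related to furin, was at least 2.86-fold lower (298 and 60.1, under the floor). Itgb8 and Itgav, which form an integrin that frees latent TGF-β, stood at 0.00 and 0.12, and the other 3 probe sets of Itgav each had 1 array under the floor. Thbs1, for the matrix protein thrombospondin 1 that can activate latent TGF-β, read 351 and 197 on its brightest probe set (log2 ratio -0.83). Its other probe set read 517 and 30.5, under the floor, with a ratio of -2.31 or below, and the gene passed 2-fold lower with the mean or the dimmest probe set. Emilin1, which limits processing of the TGF-β precursor, stood at 0.26, and its other probe set read 406 and 62.6, under the floor, at -1.97 or below. Furin, Ltbp2 and Pcsk6 each rest on 1 measured probe set.

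Of 7 measured accessory receptors and ligand traps, 1 was higher and 2 were lower (14.3% and 28.6%, beside 11.5% and 9.44% of all genes). Fmod encodes fibromodulin, a matrix proteoglycan that binds TGF-β. On its brightest probe set it read 150 at P7 and 3561 at P60, 23.7-fold higher. All 6 of its probe sets were higher, from 2.44 to 4.57, 2 of them as bounds with P7 under the floor. The brightest is of the _x_at kind, whose probes can match other sequences. So are the others, except the probe set with no letter in its ending. That probe set read 248 at P7 and 1350 at P60, 5.44-fold higher (log2 ratio 2.44). Eng, the endothelial co-receptor endoglin, read 576 and 140, 4.11-fold lower, and a further probe set, under the floor at P60, gave a log2 ratio of -1.46 or below. Nrp1, a co-receptor of vessels and axons, read 383 and 163, 2.36-fold lower, and a further probe set, also under the floor at P60, gave -0.34 or below. Eng is itself a gene of vascular endothelium. The 10 vascular endothelial markers had a summed signal of 3545 at P7 and 750.2 at P60, with 7 of 10 above the floor at P7 and 2 at P60. Of the 8 measured, 6 were at least 2-fold lower, beside 9.44% of all genes. The defining marker Cdh5 read 255 and 30.0, and Pecam1 was under the floor at both ages. The part of these vessel transcripts in the lower Eng, Nrp1 and Tgfbr2 signals was not tested, and fewer cells of a type cannot be told apart from less RNA per cell in pooled tissue.

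The Smads and their partners were mostly within 2-fold, 7 of 8 measured, as were 10305 of all 13029 measured genes. Smad3, which carries the signal from the type I receptor, read 1188 at P7 and 2449 at P60, 2.06-fold higher, with its other probe set, under the floor at P7, at a log2 ratio of at least 0.14. Smad2 stood at 0.06, its other probe set at -0.27, and Smad4, the common partner, at 0.46. The acetyltransferase gene Ep300 had the lowest ratio, -0.80. Of 13 repressors and feedback genes 2 were higher and 1 lower (15.4% and 7.69%, beside 11.5% and 9.44% of all genes). Pmepa1, a feedback inhibitor that sequesters Smad2 and Smad3, was 2.01-fold higher, with other probe sets at -0.05 and, under the floor at P7, at least 0.63. Usp4, a deubiquitinase, was 2.02-fold higher, and its other probe set read 54.7, under the floor, and 104.1, just above it. Skil, a repressor of Smad transcription that TGF-β induces, was 2.11-fold lower (3841 and 1822). Of 6 genes outside the Smad branch, Traf6 was 2.58-fold lower with 5 probe sets from -1.37 to 1.10, and Tab1 had the highest ratio, 0.92.

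A further list held 26 genes that TGF-β is known to regulate, with 22 measured. Of these, 6 (27.3%) passed 2-fold upward and 4 (18.2%) downward, where all genes gave 11.5% and 9.44%. The median log2 ratio was -0.04, so the targets went in both directions. The count of lower targets was 2 where both arrays had to exceed the floor, 1 with a doubled floor and 6 with a pseudocount of 50 in place of the floor. The last of these adds Col3a1, Tagln and Cdkn1a, all under the floor at P60, and leaves out Tgfb1i1. The higher genes were Acta2 (11.8-fold), Col1a2 (9.21-fold), Cdkn2b (at least 6.69-fold), Ccn2 (6.19-fold), Bhlhe40 (4.74-fold) and Plod2 (3.02-fold). Acta2, the smooth muscle actin typical of myofibroblasts, read 2764 at P7 and 32524 at P60, and its other probe set, under the floor at P7, had a log2 ratio of at least 1.60. The brighter probe set ends in _s_at, whose probes can match related actins. Ccn2, a matrix-associated growth regulator and a common readout of TGF-β, read 919 and 5692. Cdkn2b, a cell cycle inhibitor, read 97.3, under the floor, and 695, and Bhlhe40, a transcriptional repressor, 353 and 1677. Plod2, which hydroxylates collagen lysines, read 467 and 1411, with its other probe set at 1.87. Col1a2, a chain of type I collagen, read 174 and 1604, 2.83-fold higher on its other probe set, whereas Col1a1, its partner chain, was under the floor at both ages (13.1 and 86.8).

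The lower targets were Gadd45b (3.88-fold), Snai2 (at least 2.68-fold), Tgfb1i1 (2.19-fold) and Lox (at least 2.12-fold). Gadd45b, an early stress and growth response gene, read 9244 at P7 and 2380 at P60, and its 3 probe sets ran from -1.96 to -0.78. Snai2, a transcription factor of epithelial to mesenchymal change, read 278 and 97.7 on its measured probe set, which ends in _x_at. Lox, which cross-links collagen, read 221 and 15.3, and both genes were under the floor at P60. Snai2 was not among the lower targets where only probe sets ending in _at with no letter were kept. Tgfb1i1, an adaptor protein of focal adhesions, read 289 and 132. Other genes of the mesenchymal group had ratios nearer to 0: the intermediate filament gene Vim 0.54, Zeb2 0.42 (5 probe sets from -0.70 to 1.23), Zeb1 0.07 and Cdh2 -0.22. Snai1 was under the floor at both ages. Tagln, another smooth muscle gene, read 109 at P7 and 10.6 at P60, at least 1.05-fold lower. Its P7 signal was close to the floor, and with a floor of 122.8 the gene was under it on both arrays.

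**Figure D3:**
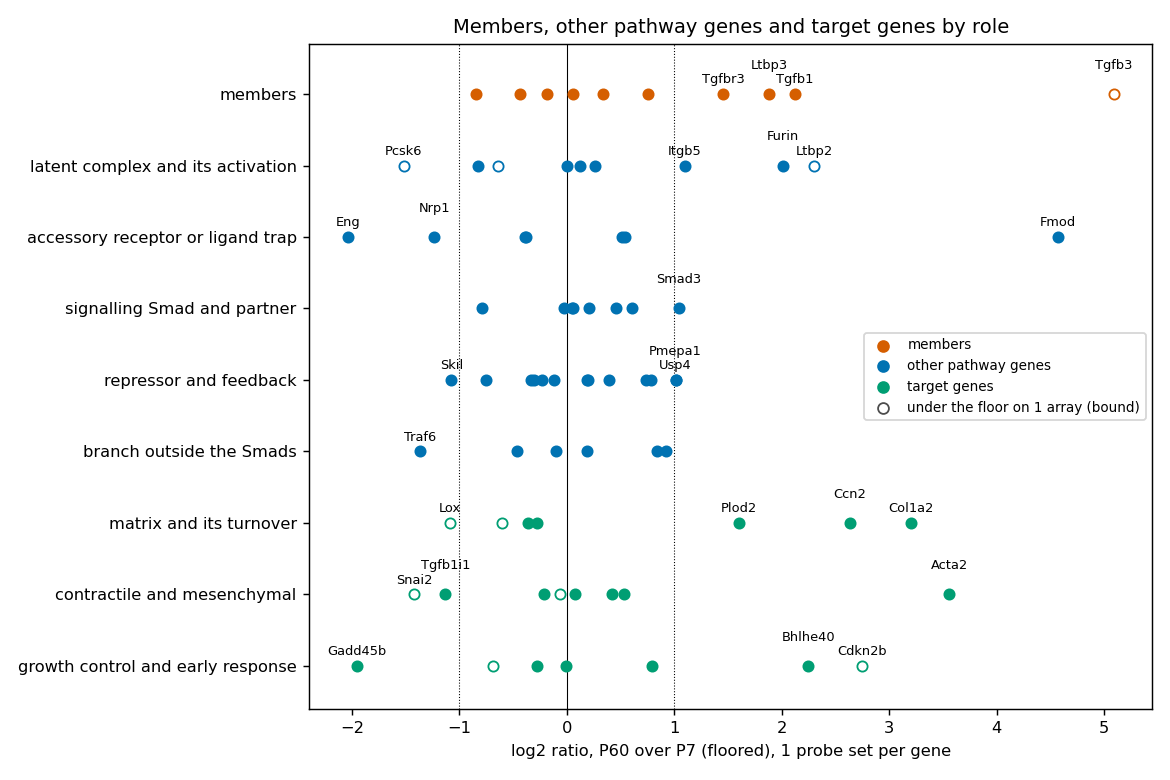
Floored log2 ratio of P60 over P7 for the 10 members (orange), 43 other pathway genes (blue) and 22 target genes (green), with 1 probe set per gene, by role. Open circles are bounds, dotted lines mark 2-fold, and genes past it are named. Tgfb3 lies farthest to the right at 5.09, followed by Fmod at 4.57 and Acta2 at 3.56, and genes past 2-fold to the left are found in 7 of the 8 other groups, all but the signalling Smads and their partners.

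The lens markers were present in both pools. The 8 measured fibre cell genes, among them Mip and Lim2, had summed signals of 435916 at P7 and 420948 at P60. None passed 2-fold on its brightest probe set, while a dimmer probe set of Gja3 had a floored log2 ratio of -1.30. The 8 lens epithelial genes summed to 29585 and 63684, with 4 at least 2-fold higher and Foxe3 lower, beside 11.5% and 9.44% of all genes. Gja1 made 12531 and 29700 of these sums, and its 5 probe sets had log2 ratios from -0.37 to 2.72. Fibroblast and scleral markers summed to 3194 and 7778, with 3 of 7 above the floor at P7 and 2 at P60. Pdgfra and Col1a2 carried most of the P60 sum, and Lum, Dpt and Col1a1 were under the floor at both ages. The corneal list summed to 815 and 19680, of which Aldh3a1 made 18639 at P60, while the corneal keratin gene Krt12 was under the floor at both ages. The pericyte list summed to 11084 and 6280. The list divided, with Rgs5 at 8935 and 104 and Pdgfrb at 561 and 5451. Macrophage (1117 and 925), retinal (2446 and 1806), pigment cell (2445 and 3540) and erythroid markers (508 and 172) were the other lists summed. Among the 7 measured pigment cell genes, 1 was at least 2-fold higher, Oca2 (290 and 2502), and 2 were lower. Their median log2 ratio was -0.46. The epithelial, fibroblast, corneal and pigment cell sums were higher at P60 together with Tgfb3, Tgfb1, Ltbp3, Tgfbr3 and Fmod. Of these sums, the corneal was higher mostly through Aldh3a1 and the pigment cell sum through Oca2 alone. The part of these cell types in those results was not tested.

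**Figure D4:**
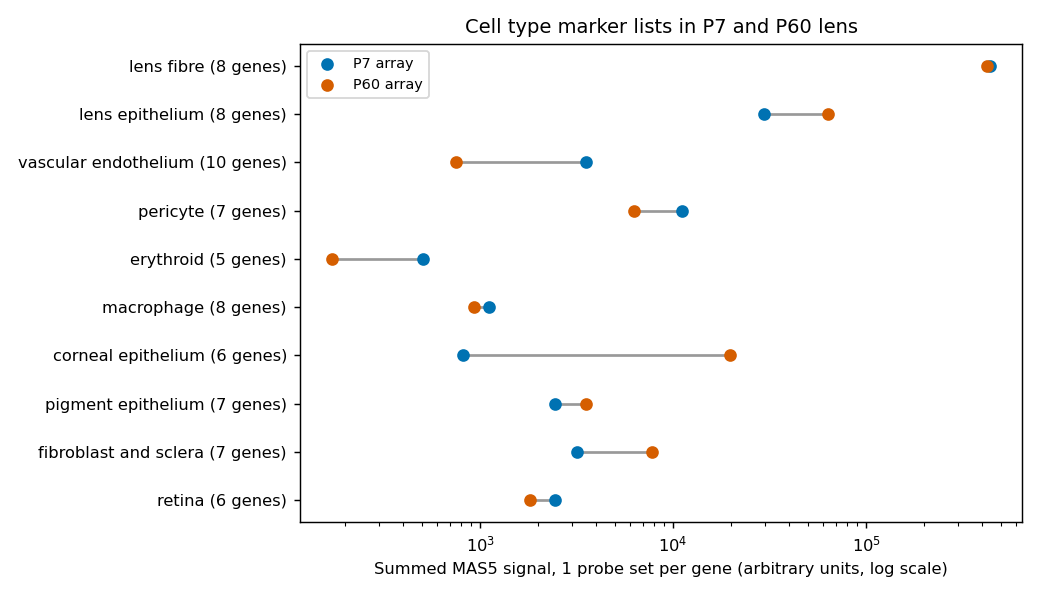
Summed MAS5 signal (log axis, arbitrary units) of 10 marker lists on the P7 array (blue) and the P60 array (orange), with 1 probe set per gene and the number of genes in brackets. The vascular sum is lower at P60 (3545 and 750.2), the epithelial sum higher (29585 and 63684) and the fibre sum similar at both ages (435916 and 420948).

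The arrays had median signals of 112.9 at P7 and 93.9 at P60, and 52.2% and 47.8% of probe sets above the floor. Control transcripts read by separate 5′ and 3′ probe sets had a lower 5′ to 3′ ratio at P60 in 5 of 6 cases, for example beta-actin with 0.785 at P7 and 0.606 at P60, and 0.0995 and 0.0262 in the dap spike-in, which was added and is not lens RNA. The part of these 5′ to 3′ differences in the 8 member probe sets under the floor and in the lower Tgfb1 probe set was not tested.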

How the data were processed

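Per the submitters' processing notes, the deposited signal intensities come from MAS5, with 1 value for a probe set on each array. Trimmed by 2% at each end, the mean was 500.004 at P7 and 500.003 at P60. The labels name no software version, scaling or detection calls. Of 45101 probe sets, 34958 had 1 gene symbol in the platform annotation, 932 several and 9211 none, and 34754 were updated through their gene number. Python 3.11.15, pandas 2.3.3 and numpy 2.4.6 were used. The floor, the 2-fold limit and the brightest probe set per gene are described in the results. The calculation was tested on simulated data. With 1 array per age no test was run, and this number of arrays limits precision. Named were every member with every probe set, every measured pathway or target gene past 2-fold, the highest and lowest of each role, and defining markers. Other genes named from these lists for context were chosen after their values were seen. The members and lists were chosen with earlier results of these data known. Listed genes without a probe set of 1 symbol were not analysed here. Alternatives were other floors, a pseudocount of 50, other scalings, other probe set choices, a stricter filter and other fold limits.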

Additional observations from a re-analysis of the deposited data

How the results depend on the processing

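Tgfb3, Tgfbr3 and Ltbp3 stayed at least 2-fold higher under every alternative floor and scaling that kept them. Ltbp3 also did so with its dimmest measured probe set and with the mean of probe sets. Tgfb3 and Tgfbr3 have 1 measured probe set each, so these choices could not change their ratios. Tgfb3 drops out where both arrays must exceed the floor. Tgfb1 went from 2.12 to -0.41 with the dimmest measured probe set and to 0.85 with the mean of probe sets. At a 4-fold limit 2 member genes and 2 member probe sets were higher, and at 1.5-fold 1 member gene (Tgfbr2) and 2 probe sets were lower. A pseudocount of 50 in place of the floor put 1 member probe set, of Tgfbr1, past 2-fold lower. A further floor, 122.8, was the 95th percentile of 86 olfactory, vomeronasal and taste receptor probe sets. It left 19 of the 20 member probe sets measured, with the same counts of 2-fold higher and lower members. Of the other pathway genes, 4 were higher with centred arrays, quantile normalization or mean probe sets, 3 with the dimmest probe sets, 12 at 1.5-fold and 3 at 4-fold. Of them 3 were lower with the doubled floor, 9 at 1.5-fold and 1 at 4-fold. Their median was -0.066 with the dimmest and 0.0014 with mean probe sets. Of the target genes, 1 was lower with the doubled floor, 2 where both arrays had to exceed the floor and 0 at 4-fold. The target median was 0.25 in the first 2 of these settings and -0.23 with the dimmest probe sets. Keeping only probe sets ending in _at with no letter, an alternative chosen after seeing the data, left 4 of 9 member genes higher. No paired analysis was possible because each age has 1 array and the labels give no replicate numbers. Having 1 array per age limits every gene alike, and signals close to or under the floor limit the values of Tgfb1 and Tgfbi and the P7 value of Tgfb3.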
